A study of Mus musculus with 5 samples.

Results

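The collagens, the other chains of the basement membrane and the enzymes that mature collagen were followed here in tissue containing the pharyngeal arches of mouse embryos at E10.5. The genes were chosen by symbol: every collagen chain, every laminin chain, the nidogens Nid1 and Nid2, perlecan (Hspg2), agrin (Agrn), the prolyl and lysyl hydroxylases, the collagen chaperone Serpinh1 and the lysyl oxidases, wherever a probe set was annotated to exactly 1 gene. That gave 61 genes on 97 probe sets, out of 12393 genes on 20380 such probe sets. Of the 61 genes, 30 had 1 probe set and 31 had 2 or 3. The study measured 5 wild-type samples, each an individual tissue isolate on an Affymetrix Mouse Genome 430A array, to see which genes this tissue expresses. The mice of the single group were 129P2/OlaHsd animals bred back to C57BL/6 over 2 generations, and carried no allele or treatment named in the labels. The piece was dissected whole and also held the second heart field, so a signal does not show which cells it came from, and fewer cells of a type cannot be told apart from less RNA per cell. Whether separate litters gave the 5 isolates is not stated, and p-values measure the spread between these isolates only, part of which may be technical.

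Collagens are trimers of alpha chains wound into a triple helix. Fibrillar chains build the fibres of connective tissue, whereas type IV chains form the sheet of the basement membrane together with a second network of laminin trimers, which nidogens and the heparan sulfate proteoglycans perlecan and agrin tie in. In the endoplasmic reticulum, prolyl hydroxylases stabilise the helix, lysyl hydroxylases prepare sites for cross-links and sugars, and Serpinh1 (HSP47) escorts the folded procollagen. Outside the cell, lysyl oxidases cross-link the chains. In the arches these matrices underlie the ectoderm and endoderm and fill the mesenchyme through which neural crest cells move.

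Signals are scaled array units, given per sample in the order of replicates 1 to 5 or as mean ± SD (n = 5). They depend on how well each probe set binds, so levels of different genes are not compared. Background was read from 189 probe sets of genes restricted to sensory neurons, hair, glands, sperm and lymphocyte receptors, and of defensins and alpha interferons. The background level of an array was the 95th percentile of the signal over these probe sets, and lay at 17.5, 16.4, 18.0, 22.6 and 23.4. A probe set was called above background when its log2 excess over that level passed limma's one-sided test at an adjusted p below 0.05 over all 20380 probe sets, and a gene was called when any of its probe sets was. Excess is given ± its SE. By this rule 27 of the 61 genes (44.3%) were above background, against 54.0% of all 12393 genes. Of the 97 probe sets 39 (40.2%) were, against 51.0% of all. The genes as a group were thus called less often than the average gene on the array, a description without a test. The count depends on the background genes: where these were chosen by the first letters of their names, which brings in the widely expressed casein kinases and interferon receptors, 10 of the 61 genes were called (16.4%, against 23.9% of all genes).

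By role, and beside the 54.0% of all genes, the counts were small and were not tested. Of 9 fibrillar collagen genes 7 were above background, of 6 type IV genes 3, of 10 laminin chains 6 and of 4 linkers of the laminin network 3. Of 6 hydroxylase genes 3 were called, with the chaperone Serpinh1. None of the measured 3 beaded filament genes of collagen VI, 3 network-forming or anchoring collagens and 4 lysyl oxidases was called. Fibril-associated collagens gave 2 of 9, and the transmembrane and multiplexin collagens 1 of 5. The basement membrane components (type IV chains, laminins and linkers) together gave 12 of 20, and the collagen chains of all types 14 of 36. Of the 27 called genes, 26 exceeded the level of the array in all 5 samples and 1, Col22a1, in 4. Of the 34 others, 16 exceeded it in no sample, 7 in 1, 3 in 2, 5 in 3 and 3 in 4.

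**Figure D1:**
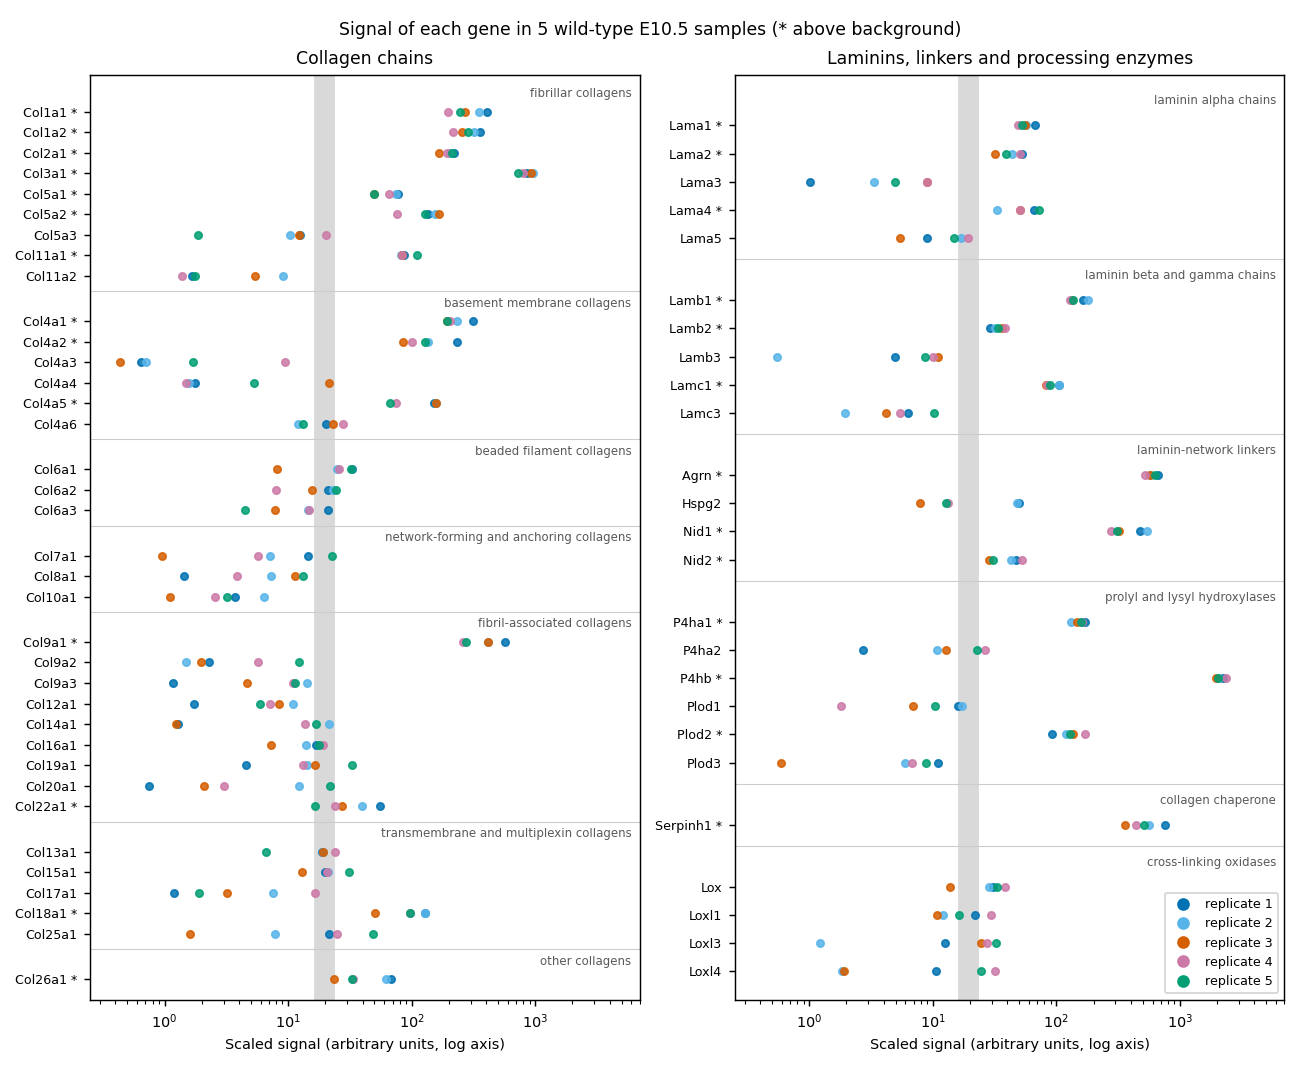
Scaled signal (log axis) of each of the 61 genes in the 5 samples, with 1 point per replicate, grouped by role. An asterisk marks the 27 genes above background, and the grey band spans the background levels of the 5 arrays, 16.4 to 23.4. The points of fibrillar, basement membrane and laminin genes with an asterisk sit to the right of the band, whereas those of collagen VI and the lysyl oxidases scatter across it.

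The markers of the labelled tissue were read in the same arrays. The counts are small, stand beside the 54.0% of all 12393 genes above background, and were not tested. Of 14 arch mesenchyme and neural crest genes 11 were above background, with Prrx1 (1063 ± 216) and Pdgfra (743 ± 71.4) among them, as were all 9 epithelial genes, 6 of 10 endothelial genes and 3 of 7 second heart field genes. Cartilage genes gave 2 of 8, Cnmd (37.7 ± 14.9) and Sox6 (33.3 ± 13.6). Acan, Comp, Hapln1, Matn1, Matn3 and Sox5 were not above background. Neuronal genes gave 9 of 10, red cell genes 4 of 6, heart muscle 3 of 7, smooth muscle 2 of 4 and leukocytes 1 of 5. Of 3 measured notochord genes Foxa1 and Foxa2 were called and Shh was not. T and Noto were not among the genes measured, so the presence of notochord in the piece was not shown. Of 11 measured genes of yolk sac endoderm and liver 4 were called. Afp, a gene of that list that was not called, reached 198 in replicate 5 and 20.7 or less in the others. Which of these tissues gave its signal cannot be told. Replicate 4 alone carried Xist (916, against 26.3 or less) and lacked the Y-linked Eif2s3y (20.1, against 769 to 968). Median signal per array ran from 28.1 to 32.2.

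RefSeq windows around the transcription start (GRCm38.p6, 250 bases before to 50 after) were found for 42 of the 61 genes, 47 windows in all. The 3 promoter elements searched were the TATA box as TATAAA on the given strand, the CCAAT box as CCAAT and the GC box as GGGCGG, both on either strand. No match of one motif can lie inside another. The GC box occurred in 75.0% of the 20 windows of called genes and in 55.6% of the 27 windows of the others, against 35.7% of 32851 windows of the annotation. The CCAAT box occurred in 10 of the 20 (22.2% of the others), against 37.4%, and the TATA box in 10.0% and 14.8%, against 8.32%. These shares are descriptions of letters in the windows, with no test. The 250 bases before the start are printed for Col1a2 and Serpinh1, whose called probe sets agreed on their highest and lowest samples, and for P4hb, the gene with the smallest spread between samples. They are read 5′ to 3′ along the gene's strand, with matches in capitals. The windows are chr6:4505368-4505617 on the plus strand for Col1a2, chr7:99353240-99353489 on the minus strand for Serpinh1 and chr11:120573254-120573503 on the minus strand for P4hb.
Col1a2: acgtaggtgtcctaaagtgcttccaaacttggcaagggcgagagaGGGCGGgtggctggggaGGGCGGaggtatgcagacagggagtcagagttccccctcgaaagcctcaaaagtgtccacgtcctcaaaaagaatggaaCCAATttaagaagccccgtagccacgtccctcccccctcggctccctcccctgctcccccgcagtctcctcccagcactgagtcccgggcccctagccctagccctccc
Serpinh1: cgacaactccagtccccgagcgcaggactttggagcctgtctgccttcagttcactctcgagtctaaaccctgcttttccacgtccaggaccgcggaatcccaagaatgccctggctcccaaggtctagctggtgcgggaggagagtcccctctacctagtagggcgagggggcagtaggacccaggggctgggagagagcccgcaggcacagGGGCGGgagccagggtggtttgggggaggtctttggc
P4hb: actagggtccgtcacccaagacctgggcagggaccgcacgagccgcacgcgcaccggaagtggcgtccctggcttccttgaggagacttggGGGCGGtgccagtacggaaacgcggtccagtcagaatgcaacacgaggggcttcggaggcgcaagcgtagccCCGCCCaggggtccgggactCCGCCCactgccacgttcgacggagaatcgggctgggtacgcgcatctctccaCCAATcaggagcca
The Col1a2 stretch held 1 CCAAT box and 2 GC boxes, the Serpinh1 stretch 1 GC box, and the P4hb stretch 1 CCAAT box and 3 GC boxes. None of the 3 held TATAAA.

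Fibrillar collagens were the class with the most calls. Col3a1, the homotrimeric chain of type III collagen in loose connective tissue, gave 851, 952, 926, 798 and 728. Its log2 excess over background was 5.45 ± 0.15 (adjusted p = 5.34e-22, limma), and its highest sample was 1.31 times its lowest. Col1a1 and Col1a2 encode the chains of type I collagen. Col1a1 gave 405, 352, 270.0, 197 and 248 (excess 3.88 ± 0.19). Col1a2 gave 359, 320.3, 255, 215 and 287 (excess 3.87 ± 0.18). Both were highest in replicate 1 and lowest in replicate 4, and every value lay above the background level of its array.

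The chains of the minor fibrils were also read. Col5a1 and Col5a2 form type V collagen, which seeds and limits fibril growth. Col5a1 gave 77.0, 74.5, 49.8, 66.1 and 49.8 (excess 1.69 ± 0.20), with its lowest values in replicates 3 and 5. Col5a2 gave 135, 155, 168, 76.8 and 128 (excess 2.72 ± 0.20), with replicate 4 the lowest. By these probe sets the 2 chains had different low samples. Col2a1, the type II chain of cartilage and notochord that is also made by embryonic epithelia, gave 219, 206, 167, 192 and 214 (excess 3.36 ± 0.17). Its type XI partner Col11a1 gave 86.7, 82.3, 83.8, 83.3 and 111 (excess 2.20 ± 0.17), where replicates 1 to 4 lay close together and replicate 5 stood above them. Col5a3 (11.4 ± 6.53) and Col11a2 (3.85 ± 3.33) were not above background (adjusted p = 1 for both, limma).

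Type IV collagen has 6 chains, of which the major pair and Col4a5 were above background. Col4a1 gave 313, 233, 192, 206 and 193 (excess 3.53 ± 0.18, adjusted p = 1.96e-16, limma). Col4a2 gave 233, 135, 84.99, 100.3 and 127 (excess 2.72 ± 0.20). Both genes were highest in replicate 1 and lowest in replicate 3, by 1.64 times for Col4a1 and 2.75 times for Col4a2. Col4a1 and Col4a2 lie head to head on mouse chromosome 8, and in the RefSeq annotation of GRCm38.p6 their starts, at position 11312826 on the minus strand and 11312805 on the plus strand, face each other so that 22 bases belong to both transcripts. The pairs Col4a3 with Col4a4, and Col4a5 with Col4a6, are likewise neighbours. Col4a3 (2.59 ± 3.87) and Col4a4 (6.34 ± 8.66), chains of the mature kidney filter, were not above background, and Col4a6 (19.3 ± 6.75) was not either.

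Col4a5, an X-linked chain, gave 153, 157, 157, 74.6 and 66.6 (excess 2.55 ± 0.24). Replicates 1 to 3 lay above replicates 4 and 5 without overlap. Its second probe set did not show the step and gave 66.3, 56.8, 55.4, 67.6 and 60.8. The low pair of samples held the Xist-carrying replicate 4 but also replicate 5, where Xist was at 26.3.

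Among the remaining collagens few stood above background. Col9a1, a type IX chain that decorates type II fibrils, gave 569, 414, 418, 260.2 and 276 (excess 4.26 ± 0.20), whereas its second probe set gave 22.0, 4.55, 35.3, 17.1 and 47.7 and was not called. Col9a2 (4.75 ± 4.52) and Col9a3 (8.48 ± 5.40), which pair with it in the cartilage protein, were not called. Col18a1, the basement membrane proteoglycan that releases endostatin, gave 128, 127, 50.1, 97.6 and 97.8 (excess 2.29 ± 0.20), with replicate 3 below the other samples. Its second probe set, also called, gave 101, 63.9, 69.2, 57.5 and 110.3, with replicate 3 in the middle of the range. Col26a1 gave 67.9, 61.6, 23.7, 33.5 and 32.8 (excess 1.06 ± 0.24), with replicates 1 and 2 above the other 3.

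Col22a1, a fibril-associated chain of tissue junctions, was the called gene closest to the threshold. It gave 55.4, 39.9, 27.4, 23.8 and 16.7 (excess 0.63 ± 0.27, adjusted p = 0.0271, limma). The call was lost without replicate 1 (adjusted p = 0.201), without replicate 2 (0.132) or without replicate 3 (0.0509), and the other probe set, with 17.3, 29.2, 10.3, 37.7 and 14.7, was not called. Of the collagen VI genes, Col6a1 gave 32.9, 24.8, 8.08, 25.6 and 32.4, with replicate 3 below the background of its array and the other 4 above. It was not called (adjusted p = 0.452, limma), but without replicate 3 it was (0.0472). Col6a2 (18.4 ± 6.67) and Col6a3 (12.5 ± 6.47) were not called.

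The collagens not called otherwise were Col12a1, Col14a1, Col16a1, Col19a1 and Col20a1 of the fibril-associated class, with mean signals from 6.78 to 16.2, and Col7a1, Col8a1 and Col10a1, with 3.41 to 10.1. Col7a1 is the anchoring fibril chain of skin and Col10a1 the chain of hypertrophic cartilage. Of the membrane-bound chains Col13a1, Col17a1 and Col25a1 had means from 6.07 to 20.8. Col15a1, a basement membrane multiplexin, had 20.0, 20.9, 13.0, 20.5 and 31.2 and did not pass (adjusted p = 0.713, limma).

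Laminins are trimers of 1 alpha, 1 beta and 1 gamma chain. Lama1, the alpha chain of the early embryonic laminin-111, gave 67.4, 57.2, 55.4, 49.1 and 52.8 (excess 1.53 ± 0.19). Lama4, the alpha chain of vessels and mesenchyme, gave 65.6, 32.8, 51.2, 50.6 and 72.9 (excess 1.44 ± 0.20), and its other probe set, with 1.82 to 13.8, was not called. Lama2, the alpha chain of muscle and nerve, gave 52.9, 44.1, 31.9, 51.0 and 39.4 (excess 1.15 ± 0.20). All 3 exceeded the level of the array in every sample. Lama5 (13.0 ± 5.71), the broad epithelial alpha chain, and Lama3 (5.46 ± 3.51), that of stratified epithelia, were not called.

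The common beta and gamma chains were above background. Lamb1 gave 163, 181, 133, 129 and 136 (excess 2.92 ± 0.18). Lamc1, shared by most laminins, gave 106, 105, 81.6, 84.0 and 88.1 (excess 2.25 ± 0.18). By these probe sets both genes were higher in replicates 1 and 2 than in replicates 3 to 5. The second called Lamb1 probe set gave 73.7, 71.2, 53.5, 96.2 and 83.7, with replicates 4 and 5 highest. Of 3 Lamb1 probe sets the third, with 24.9, 17.0, 24.0, 49.1 and 29.3, was not called, nor was the second Lamc1 probe set, with 20.0, 19.8, 18.6, 40.6 and 32.7. Lamb2 gave 29.1, 32.0, 36.3, 38.7 and 33.8 (excess 0.80 ± 0.21), all within a factor of 1.33. Lamb3 (7.02 ± 4.29), the partner of Lama3 in laminin-332, and Lamc3 (5.63 ± 3.06) were not called.

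The linkers of the laminin network differed in how evenly they were read. Agrin, a proteoglycan that binds laminin and dystroglycan, gave 670.0, 572, 575, 522 and 631 (excess 4.93 ± 0.15, adjusted p = 4.26e-21, limma), with the highest sample 1.28 times the lowest. Nid1, which bridges laminin and type IV collagen, gave 477, 540.2, 323, 278 and 307 (excess 4.26 ± 0.19), and replicates 1 and 2 lay above the other 3 without overlap. Its second probe set, with 10.4, 19.4, 19.7, 22.5 and 22.3, was not called. Nid2 gave 47.3, 43.3, 28.6, 53.1 and 30.5 (excess 1.02 ± 0.22), with replicate 4 the highest. Perlecan, Hspg2, gave 49.7, 47.6, 7.84, 13.2 and 12.7. Replicates 1 and 2 stood above the background of their arrays and the other 3 below it, so that the gene was not called (excess 0.04 ± 0.38, adjusted p = 0.809, limma). Its second probe set gave 18.5, 7.99, 12.2, 27.8 and 2.56 and did not separate these samples.

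Among the processing enzymes, each hydroxylase family had a member above background. P4hb, protein disulfide isomerase and the beta subunit of prolyl 4-hydroxylase, gave 2235, 2028, 1948, 2348 and 2018 (excess 6.77 ± 0.13, adjusted p = 1.46e-25, limma). P4ha1, a catalytic alpha subunit, gave 169, 131, 146, 160.5 and 158 (excess 2.97 ± 0.17). The 5 samples of each lay within 1.21 and 1.29 times of each other. The second catalytic gene, P4ha2 (15.0 ± 9.49), was not called. Of the lysyl hydroxylases, Plod2, which hydroxylates the telopeptides used for cross-links, gave 92.5, 120.4, 136, 169 and 129 (excess 2.71 ± 0.17) and was lowest in replicate 1. Plod1 (10.52 ± 6.43) and Plod3 (6.63 ± 3.89) were not called.

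Serpinh1, the procollagen chaperone, gave 756, 566, 357, 439 and 514 (excess 4.72 ± 0.17, adjusted p = 1.75e-19, limma). Replicate 1 was highest and replicate 3 lowest, a ratio of 2.12, and the second probe set, with 685, 559, 221, 379 and 449, had the same highest and lowest samples. The first of these probe sets is of a type (x_at) that can share probes with other transcripts. None of the 4 measured lysyl oxidase genes was called, and Loxl2 was not among the genes measured. Lox came nearest, with 30.6, 28.7, 13.9, 38.1 and 32.8 (excess 0.50 ± 0.24, adjusted p = 0.0513, limma), and whether it passed depended on the processing. Without replicate 3, the low sample, it passed (0.00745), whereas without any other single replicate its adjusted p lay between 0.0801 and 0.144. It also passed with the 90th percentile as background (0.00256), quantile normalization (0.0474), a floor of 16 (0.0136), a pseudocount of 16 (0.0434) and dim genes left out (0.0257). It did not pass in the other alternatives, where adjusted p lay between 0.0529 and 1. The remaining Lox probe sets, with 12.4 to 17.9 and 0.30 to 6.60, were not called. Loxl1 (18.1 ± 7.72), Loxl3 (19.6 ± 12.6) and Loxl4 (14.1 ± 13.5) were not above background.

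Other genes around collagen were read from lists of maturation factors, receptors and remodelling enzymes. Their counts stand beside the 54.0% of all 12393 genes that were above background, and no list was tested. Of 22 measured maturation genes 15 were above background, with Sparc (1474 ± 303), a collagen-binding matricellular protein, Ppib (1177 ± 259.8), the cyclophilin of the prolyl 3-hydroxylase complex, Sec23a (904 ± 229.7), a coat protein of procollagen export, and the disulfide isomerase Pdia3 (715 ± 134) among them. Of 13 receptor genes 7 were called, among them the syndecan Sdc1 (1297 ± 132), the collagen receptor Ddr1 (417 ± 116), and the laminin-binding integrin chains Itga6 (370.4 ± 76.7) and Itgb1 (143 ± 37.8). Of 11 remodelling genes 5 were called, among them Timp3 (181 ± 38.1), an inhibitor bound to matrix, and the gelatinase Mmp2 (157 ± 38.6).

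Variation between the samples was then examined in the 31 genes whose mean log2 signal lay above the mean background level. None varied beyond genes of like signal (F test of the variance against limma's trend, adjusted p from 0.793 upwards), and 6 of all 7405 genes (0.0810%) did. At an unadjusted p below 0.05 there were 2 of 31 (6.45%), Hspg2 with an SD of 1.21 log2 units and Col4a5 with 0.63, against 5.55% of all genes. The median SD was 0.39 log2 units, against 0.31 for all genes. In 4 of the 31 genes (12.9%), Col6a1, Col11a1, Col18a1 and Lox, 1 sample stood apart by Dixon's ratio, against 5.93% of all 7405 genes, a difference that was not tested.

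The genes were nevertheless high and low in the same samples more often than the average gene. Of the 31 genes 18 (58.1%) had their highest signal in replicate 1, against 21.1% of all 7405 genes, and 15 (48.4%) had their lowest in replicate 3, against 23.9%. Both held for 11 genes, among them Serpinh1, Col4a1, Col4a2, Col26a1 and Hspg2. Highest values lay in replicate 2 for 3 genes, in replicate 3 for 2, in replicate 4 for 5 and in replicate 5 for 3. Without replicate 1, replicate 2 held the highest value of 14 of 30 genes. The mean deviation of the 31 genes from their own means was 0.32, 0.16, -0.28, -0.12 and -0.08 log2 units in replicates 1 to 5, whereas that of all genes stayed between -0.05 and 0.04. Over the 27 called genes alone it was 0.29, 0.13, -0.16, -0.14 and -0.12, so the replicate 3 value was smaller without the uncalled Col6a1, Hspg2, Lox and Col15a1. Of the 27, 16 were highest in replicate 1, 11 lowest in replicate 3 and 8 lowest in replicate 4. These are counts over genes of the same 5 arrays, and no test of the pattern was made. Among the listed genes around collagen, 7 receptor genes with a mean above the level deviated by 0.23 in replicate 1 and -0.23 in replicate 3. For 7 remodelling genes these values were 0.23 and -0.20, and for 17 maturation genes -0.04 and -0.09. Differences between these lists were not tested.

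**Figure D2:**
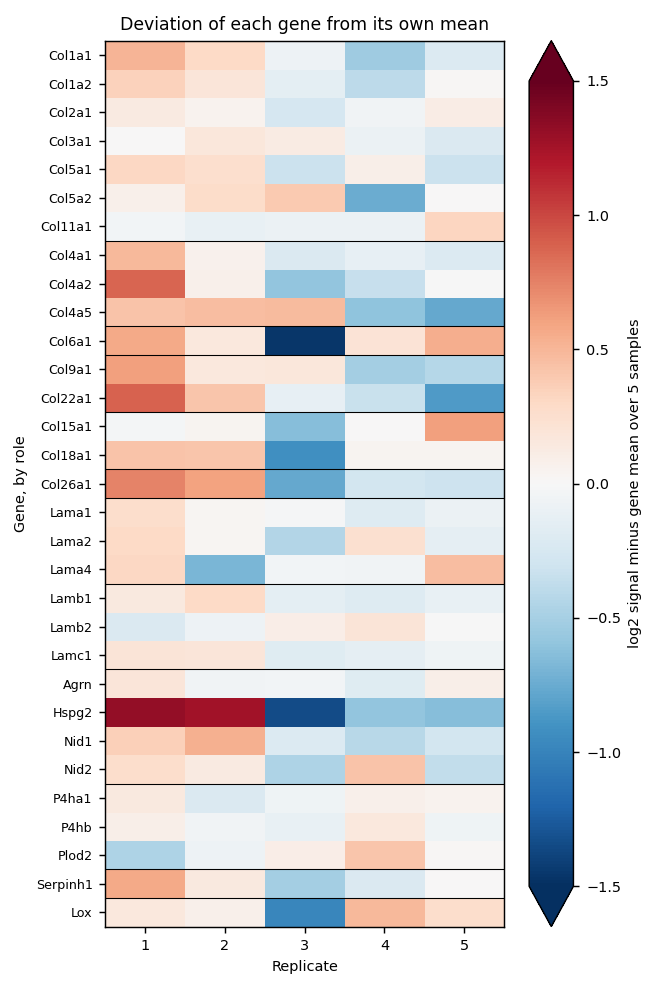
Log2 signal of the 31 genes with a mean above the background level in each of the 5 samples, centred on the gene's own mean, with colour from below to above the mean and genes ordered by role. Replicate 1 is the highest sample of 18 genes and replicate 3 the lowest of 15.

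The deviations can also be read by role. The 3 type IV chains had a mean deviation of 0.60 log2 units in replicate 1, and the 4 linkers 0.53 in replicate 1 and -0.51 in replicate 3. Hspg2, which was not called, had the largest deviations of the 4, and the 3 called linkers averaged 0.27 and -0.24. The 7 fibrillar genes deviated by 0.19 in replicate 1 and -0.05 in replicate 3, with their lowest mean, -0.26, in replicate 4. The 3 hydroxylases deviated by -0.07 in replicate 1 and 0.22 in replicate 4. The 3 laminin beta and gamma chains lay between -0.08 and 0.14 in every sample. These differences between roles were not tested.

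Markers of cell types moved between the samples too. The 12 arch mesenchyme and neural crest genes with a mean above the level had a mean deviation of 0.37 log2 units in replicate 1, with 7 of the 12 highest there, 5 lowest in replicate 3 and 5 lowest in replicate 4. The summed signal of that list, whose 11 called genes include Prrx1 and Twist1, was 4190 in replicate 1, 3212 in replicate 3 and lowest in replicate 4 (2863). Second heart field genes deviated by 0.40 in replicate 1 and -0.05 in replicate 3, with summed signals from 1642 to 2332 and Tbx1 and Nkx2-5 not called. Epithelial genes deviated by 0.08 in replicate 1 and -0.24 in replicate 3 (summed signal 1318 in replicate 3, 1544 to 1816 elsewhere, all 9 called). Endothelial genes deviated by 0.04 and -0.27 in the same samples, with summed signals from 828 to 1056 and with Cdh5 and Pecam1 not called. The summed signal of yolk sac endoderm and liver genes was highest in replicate 5 (1342, against 396 to 803). Of the 4 with a mean above the level 2 were highest there. Pth1r was highest in replicate 2 (180) and Thbd was lowest in replicate 5 (47.0). In replicate 3 the 9 neuronal genes with a mean above the level deviated by 0.32, 5 red cell genes by 0.30 and 4 heart muscle genes by -0.61. There 3 cartilage genes deviated by 0.36, although Sox5 (17.5) had its lowest value, and 2 notochord genes by 0.29. In replicate 4 neuronal genes deviated by -0.56, with 8 of 9 lowest there, and red cell genes by -0.55. The part of these lists in the result was not tested.

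**Figure D3:**
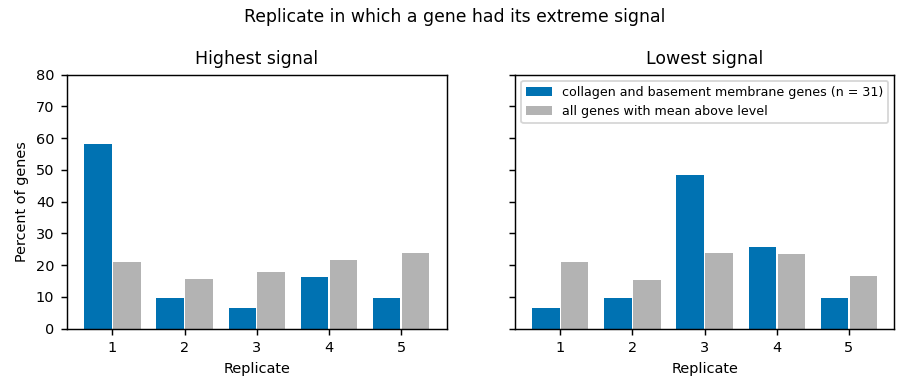
Percent of genes with their highest (left panel) or lowest signal (right panel) in each of the 5 replicates, for the 31 collagen, basement membrane and processing genes and for all 7405 genes with a mean above the background level. The share highest in replicate 1 is 58.1% against 21.1%, and the share lowest in replicate 3 is 48.4% against 23.9%.

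Probe sets of the same gene give a second reading of the same RNA. Of the 31 genes with 2 or more probe sets, 10 had all of them called, 8 had some called and 13 none. Among the 18 with a call, probe sets differed in their call in 44.4%, against 51.6% of 3631 such genes on the array. The 8 genes with some called were Col5a1, Col9a1, Col11a1, Col22a1, Lama4, Lamb1, Lamc1 and Nid1. The probe set of Col5a1 that was not called gave 29.3, 21.0, 17.3, 1.09 and 18.2, and that of Col11a1 gave 24.5, 40.3, 29.9, 15.99 and 20.4.

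In 12 genes at least 2 probe sets were called, so the order of the samples could be read more than once. The brighter and the next probe set had the same lowest sample in 5 of the 12 genes (41.7%, against 28.9% of 2422 genes) and the same highest in 2 (16.7%, against 31.2%). The latter were Col1a2 and Serpinh1, both highest in replicate 1. The second Col1a2 probe set gave 254, 234, 224, 161 and 193, with replicate 4 lowest in both. The second Col1a1 probe set gave 51.8, 50.7, 56.1, 20.5 and 35.5, and it too was lowest in replicate 4 but highest in replicate 3. For Col5a2 the second probe set gave 89.3, 89.4, 139, 145 and 178, with its lowest values in replicates 1 and 2. There the brighter one lay at or above its own median. The second probe sets of Col3a1 (426, 438, 458, 306 and 432) and Plod2 (53.0, 41.7, 71.2, 57.6 and 56.1) also ordered the samples otherwise. That of P4ha1 gave 36.9, 39.2, 38.5, 94.3 and 52.9, with replicate 4 above the rest. The second Col4a1 probe set gave 60.6, 62.5, 31.3, 31.9 and 39.5, so replicates 1 and 2 were high and replicate 3 was again lowest. Over the 12 second probe sets 2 were highest in replicate 1, 5 were lowest in replicate 3 and 4 in replicate 4. Of the 7 brighter probe sets highest in replicate 1, the second was highest there in 2 genes. Of the 4 lowest in replicate 3 the second was lowest there in 3, and of the 4 lowest in replicate 4 in 2. These counts were not tested.

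**Figure D4:**
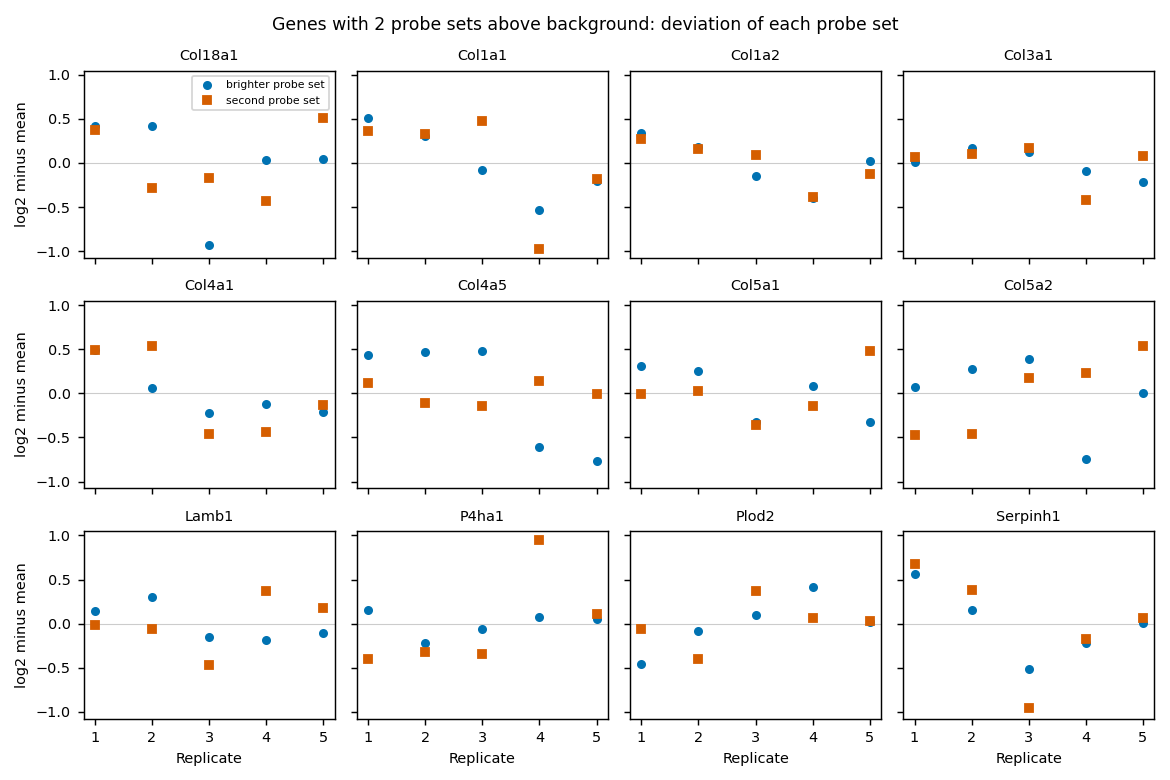
Log2 signal minus its own mean over the 5 samples, for the brighter (circles) and the second (squares) called probe set of each of 12 genes, 1 point per replicate. Col1a2 and Serpinh1 have their highest point in replicate 1 in both probe sets, and 5 of the 12 genes share their lowest replicate.

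Pairs of genes were set side by side through their deviations from their own means, a comparison that needs no common scale. Most encode chains or subunits that assemble together. Col3a1 and Col5a2 were paired as neighbours, and Nid1 and Nid2 as linkers of the same network. Lamb1 and Lamc1, partners in the commonest laminins, had SDs of 0.21 and 0.18 log2 units over the samples, and the SD of their difference was 0.07. All 5 samples lay on the same side of the mean for both. Col1a1 and Col1a2 had SDs of 0.41 and 0.29 and a difference of 0.17, with 4 of 5 samples on the same side. Col4a1 and Col4a2, which share their start region, had SDs of 0.30 and 0.55 and a difference of 0.31, with all 5 on the same side. For the laminin and type I pairs the difference thus varied less than either chain alone, as read by the brightest probe set of each. The second called Lamb1 probe set, highest in replicates 4 and 5, ordered the samples otherwise than Lamc1.

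In the other pairs the difference varied more than the steadier gene. The type V chains Col5a1 and Col5a2 had SDs of 0.31 and 0.44 and a difference of 0.58, with 2 samples on the same side. For Nid1 and Nid2 the values were 0.42, 0.39 and 0.49. Col3a1 and Col5a2, neighbours on chromosome 1, had 0.16, 0.44 and 0.37. Both Col5a2 comparisons rest on its brightest probe set, which was lowest in replicate 4 (76.8). The second called Col5a2 probe set gave 145 there and was lowest in replicate 1 (89.3). Col11a1 and Col2a1 had 0.18, 0.16 and 0.18, and the enzyme subunits P4ha1 and P4hb 0.14, 0.11 and 0.12. With 5 samples no correlation was computed and no pair was tested.

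**Figure D5:**
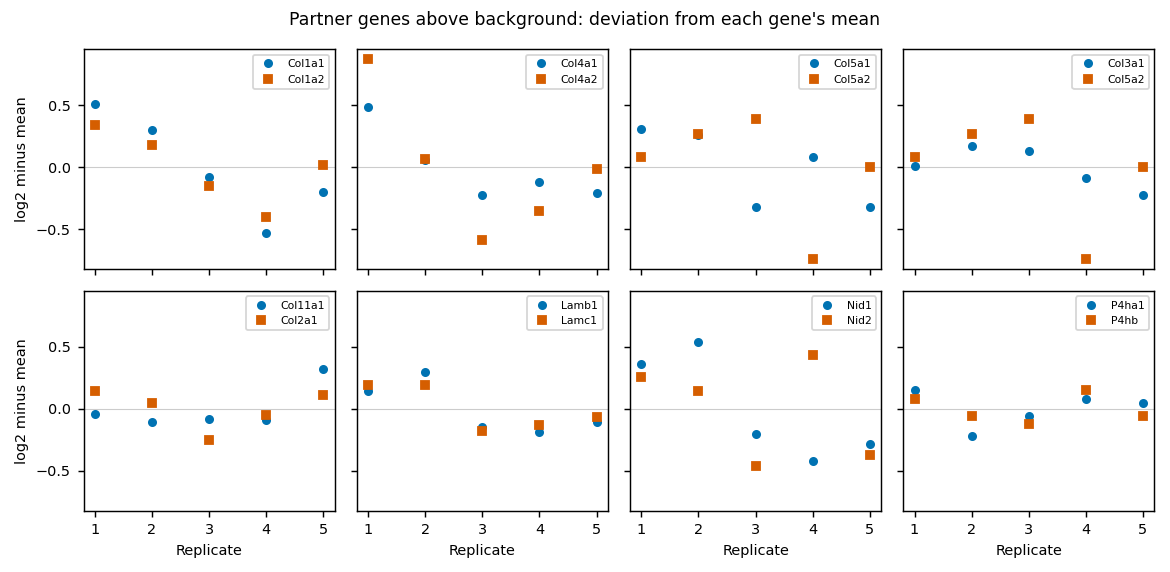
Deviation of each gene from its own mean (log2 units) in the 5 samples, as read by its brightest probe set, 1 point per replicate and gene. Shown are 8 gene pairs, most of them partner chains, with both genes above background. The points of Lamb1 and Lamc1 lie almost on each other (SD of the difference 0.07), whereas those of Col5a1 and Col5a2 part in replicates 3 and 4 (SD of the difference 0.58).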

How the data were processed

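RNA from 5 tissue isolates (10 ng each, amplified with NuGEN kits, per the labels) was hybridised to 1-colour Affymetrix arrays. The deposited values are intensity values, 1 scaled signal per probe set, made by the authors with GCOS, Affymetrix's operating software, per the submitters' processing notes; version and algorithm: not given in the sources used here. On every array, the 2% trimmed mean was 150.0, so shares of signal and not absolute amounts are compared. Amplification from little RNA can add to the spread between samples.

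Of 22690 probe sets 64 controls, 691 with several genes and 1555 without a gene were left out; 20351 of the remaining 20380 matched RefSeq by Entrez ID. Signals were floored at 1 and taken to log2. Excess over the background level was tested with limma 3.58.1 in R 4.3.3 (intercept fit, eBayes with trend and robust, one-sided, Benjamini-Hochberg over 20380 probe sets, adjusted p below 0.05). The level was treated as known, so its own error is not in the SE. The brightest probe set, by mean log2 signal, stood for a gene. Variance was tested against limma's trend over 7405 genes. The steps were tested on simulated data, but how often seeded differences were recovered is not given here. With 5 arrays in 1 group no conditions were compared, and the number of arrays limits precision.

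Values by sample are given for up to 3 called genes per role with the largest excess, for genes with a sample apart, for genes whose probe sets differ in call and for partner chains; other lists name up to 4 called genes by excess. Values shown beyond this rule (Hspg2, Col15a1, Afp and the tissue markers) were chosen after they were seen. Second called probe sets were also shown for some genes. The members and lists were chosen with earlier results of these data known. Alternatives were the percentile and genes of the background level, quantile normalization, a floor or pseudocount of 16, leaving out dim genes, other choices of probe set, eBayes without trend and robust, and each replicate left out.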

Additional observations from a re-analysis of the deposited data

Results flagged for a closer look

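In 4 of 31 genes tested for a single sample apart (Dixon's ratio above the 95% critical value of 0.71 for 5 samples), 1 sample stood apart from the other 4 (12.9%, against 5.93% of all 7405 genes with a mean above the level). Chance gives about 1 gene in 20, and the difference was not tested. Col11a1, a fibrillar chain, was highest in replicate 5 with a signal of 111.0 (gap over range 0.828). Col18a1, a basement membrane proteoglycan, was lowest in replicate 3 with 50.1 (0.714). Col6a1, a beaded filament chain, was lowest in replicate 3 with 8.08 (0.798), below the background of that array. Lox, a cross-linking oxidase, was also lowest in replicate 3 with 13.9 (0.719), below the background of that array. Second probe sets of Col18a1 and Col11a1 did not have these samples at their extremes.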

How the results depend on the processing

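No paired analysis was possible because all 5 samples belong to 1 group. Of the 27 called genes 20 kept their call in every alternative that tested them but the background families chosen by prefix. Of these, 10 kept it there too. Plain probe sets only covered 50 of the collagen, basement membrane and processing genes. P4hb, Col2a1 and Serpinh1, which are among the 10, had no such probe set and were not tested there. Col22a1, Col26a1, Col5a1, Lama2, Lama4, Lamb2 and Nid2 lost their call in some other alternative. With the prefix families, whose level is higher by construction, 10 genes and 13 probe sets were called, and of 12 genes above that level 8 were highest in replicate 1, 0 in replicate 3, 1 in replicate 4 and 0 in replicate 5, while 0, 1, 4, 6 and 1 were lowest in replicates 1 to 5, so that replicate 4 and not replicate 3 was the commonest low sample. Under it the excess turned negative for Col11a1 (-0.66), Col18a1 (-0.56), Col22a1 (-2.23), Col26a1 (-1.79), Col4a2 (-0.13), Col4a5 (-0.31), Col5a1 (-1.17), Col5a2 (-0.13), Lama1 (-1.32), Lama2 (-1.70), Lama4 (-1.41), Lamb2 (-2.05), Lamc1 (-0.60), Nid2 (-1.83) and Plod2 (-0.14). With the 99th percentile it turned negative for Col22a1 (-0.19) and Lamb2 (-0.017), and 22 genes were called; with the mean of all probe sets it did for Lama4 (-0.36), and 24 were called.

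Counts of genes highest or lowest in a replicate moved as follows. With the 90th percentile 8 were highest in replicate 4. With the 99th percentile 3 were highest in replicate 4 and 1 lowest in replicate 1. With quantile normalization 5 were lowest in replicate 5. With a floor of 16, 4 were lowest in replicate 1, 5 lowest in replicate 2 and 6 highest in replicate 5. With the mean of all probe sets 1 was highest in replicate 5, 14 of 28 were highest in replicate 1 and 13 lowest in replicate 3. With plain probe sets only 1 was highest in replicate 2 and 1 lowest in replicate 5. Over called genes alone, counted after seeing the data like the counts of highest values, 16 of 27 were highest in replicate 1 and 11 lowest in replicate 3. The mean deviation in replicate 3 was -0.17 with the 99th percentile, -0.12 with the prefix families, -0.19 with a pseudocount of 16 and -0.16 over called genes alone, against -0.28. Lox was called in 5 of the alternatives that kept all samples. The cause of these moves was not tested.

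Leaving out each replicate in turn gave 26 to 28 genes and 38 to 40 probe sets above background, and 0 genes with excess variation each time. The counts highest ranged from 18 to 20 in replicate 1, 3 to 14 in replicate 2, 2 to 4 in replicate 3, 5 to 7 in replicate 4 and 4 to 7 in replicate 5. The counts lowest ranged from 2 to 4, 4 to 6, 14 to 18, 7 to 12 and 3 to 10 in replicates 1 to 5. The mean deviation ranged from 0.22 to 0.29 in replicate 1, 0.02 to 0.17 in replicate 2, -0.32 to -0.19 in replicate 3, -0.15 to -0.01 in replicate 4 and -0.10 to 0.02 in replicate 5. For Col22a1, Lox and Col6a1, whose signals lie near the background level, single replicates change the call.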
